A study of Mus musculus with 9 samples.

Results

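Glutathione S-transferases are enzymes that join the tripeptide glutathione to reactive molecules, and 10 of their genes were followed here among the 29915 rows of a mouse gene count table. The 10 were Gsta4, Gstm1, Gstm2, Gstm5, Gstp1, Gsto1, Gstt1, Gstt2, Gstk1 and Mgst1. They were listed by name, and the list was drawn up because Gsta4 differed strongly between the lines compared. The difference between the lines in these 10 genes is therefore a description and carries no test. All 10 were found by symbol, and all 10 passed the filter on low counts.

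The study measured poly(A)-selected RNA of mouse embryonic fibroblasts, cells grown out of mouse embryos, to look at proteasome subunits. The first genotype was wild type (WT) and the other is labelled mutator, with 1 line for each. The labels name no allele, strain, sex or embryonic age for either line. Neither line was treated, and wells of both lines were harvested at 48 h. There were 4 WT libraries of 26341230 to 36238653 counts and 5 mutator libraries of 32045662 to 49511365 counts. The libraries are wells of the same line, which the series calls technical replicates, so each p-value below measures only the spread between wells. With 1 line each, an effect of the genotype and of whatever else sets the lines apart cannot be told apart. In bulk RNA, fewer cells that express a gene and less RNA per cell cannot be told apart either.

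Conjugation to glutathione makes electrophiles, such as drugs, pesticides and the aldehydes left by lipid peroxidation, more soluble and ready for export. The cytosolic enzymes fall into the alpha (Gsta), mu (Gstm), pi (Gstp), omega (Gsto), theta (Gstt) and zeta (Gstz) classes. The kappa enzyme Gstk1 sits in mitochondria and peroxisomes, and Mgst1 belongs to the unrelated MAPEG family of membrane proteins. Many of these genes are known targets of NRF2, which binds the antioxidant response element, and of the aryl hydrocarbon receptor, which binds the xenobiotic response element.

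The genes lie at 7 loci. In GRCm38 (mm10), Gsta4 is at chr9:78191966-78209349, Gstp1 at chr19:4035411-4037912 and Gsto1 at chr19:47854973-47864790. The mu cluster spans chr3:107895854-108017973 and holds Gstm5, Gstm2 and Gstm1 in that order. Gstt1 and Gstt2 share the span chr10:75783813-75837419, Gstk1 is at chr6:42245935-42250441 and Mgst1 at chr6:138140527-138156755. The RefSeq promoter table of GRCm38.p6 held 8 of the 10, all but Gsta4 and Gstt2. Of these, 4 are shown as the 250 bases before the outermost listed start, 5′ to 3′ on the strand of the gene, with CG dinucleotides in capitals. The mu genes are shown because they share 1 cluster and differed in direction between the lines, and Gstk1 because it had no WT counts.
Gstm1 (chr3:108017974-108018223, minus strand): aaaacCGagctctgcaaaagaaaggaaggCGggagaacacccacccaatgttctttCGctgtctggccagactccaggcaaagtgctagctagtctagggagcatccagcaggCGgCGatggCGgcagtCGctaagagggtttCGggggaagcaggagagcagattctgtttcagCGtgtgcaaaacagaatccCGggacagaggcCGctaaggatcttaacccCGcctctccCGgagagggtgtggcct
Gstm2 (chr3:107986421-107986670, minus strand): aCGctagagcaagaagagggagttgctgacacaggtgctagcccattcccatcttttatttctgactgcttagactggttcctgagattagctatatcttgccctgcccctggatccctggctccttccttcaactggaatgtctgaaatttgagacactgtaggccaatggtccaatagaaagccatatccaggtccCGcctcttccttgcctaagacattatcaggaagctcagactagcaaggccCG
Gstm5 (chr3:107895604-107895853, plus strand): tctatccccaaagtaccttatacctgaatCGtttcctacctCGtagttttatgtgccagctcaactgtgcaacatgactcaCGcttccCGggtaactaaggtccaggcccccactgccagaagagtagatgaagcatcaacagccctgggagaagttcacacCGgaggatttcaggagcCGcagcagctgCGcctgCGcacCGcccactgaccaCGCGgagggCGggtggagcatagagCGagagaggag
Gstk1 (chr6:42245685-42245934, plus strand): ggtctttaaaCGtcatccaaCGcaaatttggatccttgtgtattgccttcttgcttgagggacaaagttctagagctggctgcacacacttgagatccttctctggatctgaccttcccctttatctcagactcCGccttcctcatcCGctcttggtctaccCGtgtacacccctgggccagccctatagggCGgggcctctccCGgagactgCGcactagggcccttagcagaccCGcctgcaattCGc
The windows of Gstm1 and Gstm5 each held 13 CG dinucleotides, that of Gstk1 held 10 and that of Gstm2 held 3, against a median of 6 over 32851 promoter windows of the same length. These 3 motifs were searched on both strands: TGACNNNGC for the antioxidant response element, TGANTCA for AP-1 and GCGTG for the xenobiotic response element. They occur in 10.2%, 6.7% and 28.2% of those windows. The Gstm5 window held the first motif starting 42 bases before the start, the second at 176 bases and the third at 171 and 38 bases. Its copies of the third motif overlap the second and the first motif. The Gstm1 window held only the third motif, at 76 bases, and those of Gstm2 and Gstk1 held none of the motifs. In windows not printed, Mgst1 held the first motif at 56 bases and Gstp1 held the second at 74 and the third at 13 bases, while Gsto1 and Gstt1 held none. These are matches of letters and not measured binding sites.

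The family differed between the lines in both directions and not as a block. Relative to WT, Gsta4, Gstm1, Gstp1, Gstt1, Gstk1 and Mgst1 were higher in mutator, and Gstm2, Gstm5 and Gsto1 were lower. Levels are given as CPM, the count of a gene relative to its TMM-scaled library size, and differences as log2 of mutator over WT. Across all 13345 genes tested, 79.9% passed an adjusted p of 0.05, with 40.7% higher and 39.2% lower, and of the 10 genes 9 did, with 6 higher and 3 lower. A fitted change of at least 2-fold was reached by 6 of the 10 and by 17.8% of all genes. Of these 6, 4 were higher (11.3% of all genes) and 2 were lower (6.53% of all genes). The libraries of the lines did not overlap for 9 of the 10, as for 71.9% of all genes. The median log2 fold change was 0.50 for the 10 and 0.01 for all genes, and the median absolute value was 1.38 against 0.35. The median of the 10 was 0.94 relative to the chromosome medians. Since the list was chosen on this contrast, nothing is read from these shares.

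**Figure D1:**
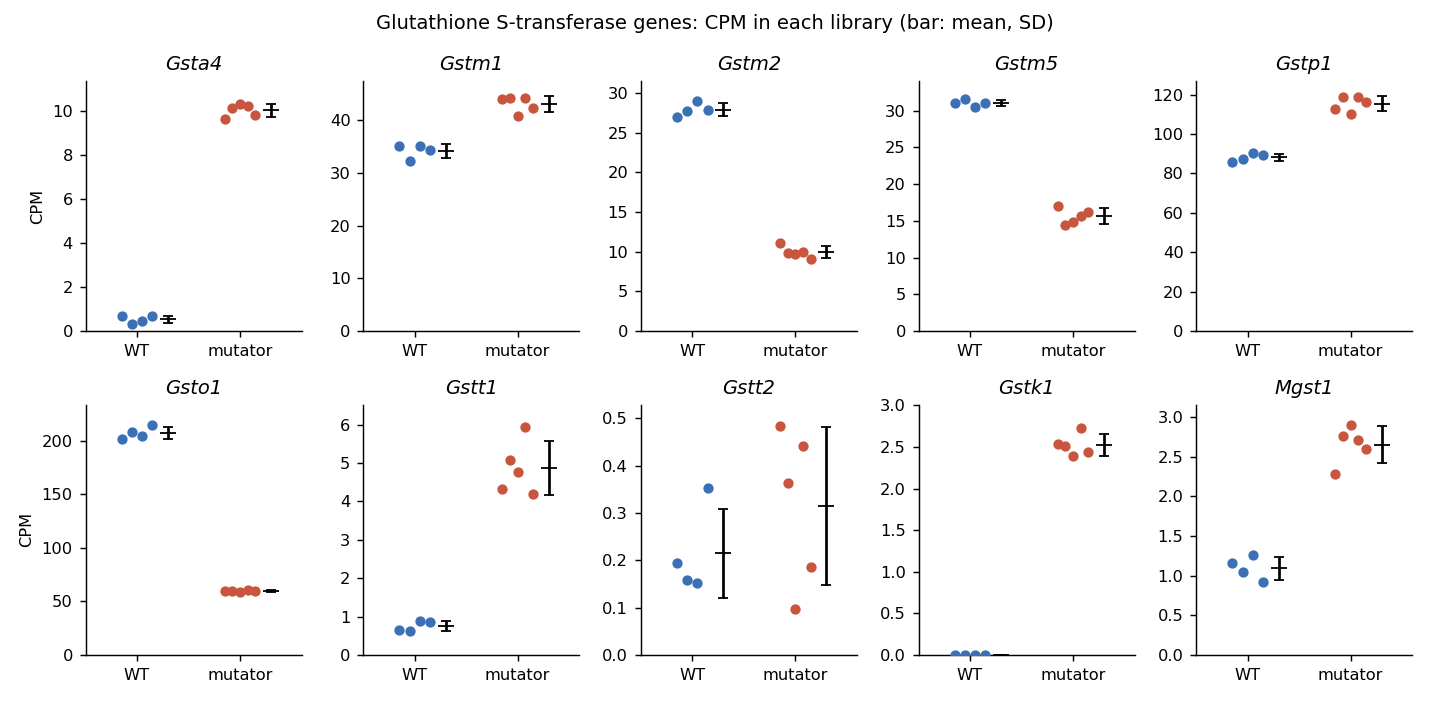
CPM of each of the 10 glutathione S-transferase genes in every library (blue, WT, n = 4; red, mutator, n = 5), with the mean and SD as a bar and each vertical axis starting at 0. The libraries of the lines are apart in 9 panels and overlap for Gstt2.

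Gsta4, the alpha-class enzyme that conjugates 4-hydroxynonenal and related lipid aldehydes, was the gene that led to the choice. Its level was 0.694, 0.347, 0.456 and 0.671 CPM in the WT wells, from 25, 11, 12 and 19 counts. In the mutator wells it was 9.62, 10.1, 10.3, 10.2 and 9.82 CPM, from 318 to 509 counts. Every mutator well was far above every WT well. The mean was 0.542 ± 0.168 CPM over the WT wells (SD, n = 4) against 10.02 ± 0.289 CPM over the mutator wells (SD, n = 5), a log2 fold change of 4.19 ± 0.12 (SE) or 18.2-fold. Of all tested genes, 98.1% had a lower log2 fold change. The mutator wells varied by a coefficient of variation of 2.89%, less than the 4.87% that counting alone gives, and the WT wells by 31.0% against 24.4%. No part of the Gsta4 transcript is shared with another gene in windows of 50 or 150 bases.

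The other alpha-class gene that could be measured, Gsta1, lies 21.3 kb beyond Gsta4. Gsta1 had 1 or 2 counts in each WT well and 55 to 66 in each mutator well, 0.0489 ± 0.0177 against 1.47 ± 0.326 CPM. Its log2 fold change was 4.79 ± 0.33 (27.6-fold, edgeR quasi-likelihood fit). That size is uncertain, since it rests on 6 WT counts in all, and Gsta1 passed the filter on low counts only through mutator. Of its 150-base windows, 73.7% occur also in Gsta2, Gm3776 or Gm10639, so the share of these reads that belongs to Gsta1 is uncertain. Gsta2 was not tested and had 1 count over the WT libraries, with a ratio of summed counts per depth of 16.8 (exact 95% interval 2.79 to 688, counting error only). Gsta3 had at most 2 counts in any library.

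On the other side of Gsta4, Ick, a kinase gene, lies 19.9 kb away and rose by 0.74 on the log2 scale, from 14.1 ± 0.749 to 23.6 ± 0.979 CPM (adjusted p = 8.79e-11). The next genes on that side, Fbxo9 and Elovl5, had log2 fold changes of 0.19 and 0.27. Beyond Gsta1, Ooep and Ddx43 had 1.85 ± 0.34 and 0.76 ± 0.12. Both were low, Ooep at 0.0926 ± 0.026 against 0.332 ± 0.0672 CPM and Ddx43 at 1.21 ± 0.117 against 2.065 ± 0.184 CPM. All 5 passed the edgeR test, and none came near Gsta4. Of 12 tested genes of other families within 1 Mb of Gsta4, 10 were higher and 2 lower, with a median of 0.60. The median of chromosome 9 was 0.40 over 698 tested genes, and relative to it Gsta4 was at 3.79.

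**Figure D2:**
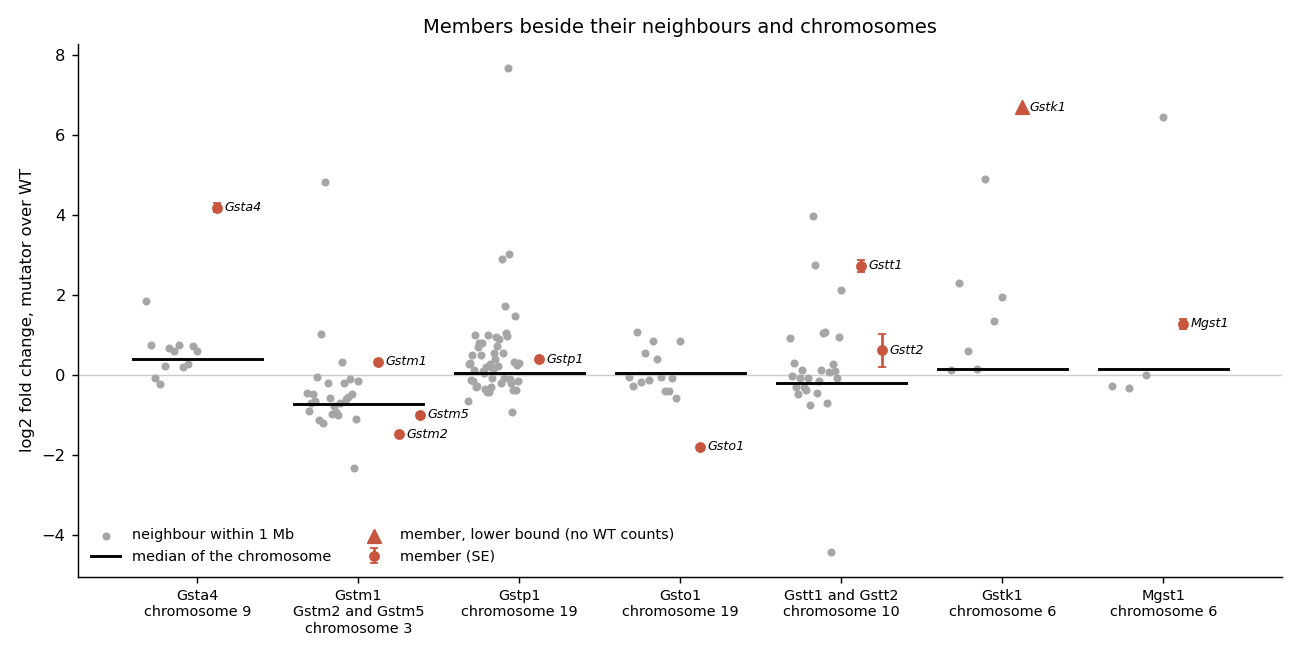
Log2 fold change (mutator over WT) of the 10 genes in red, with SE, beside tested genes of other families within 1 Mb (grey points) and the median of their chromosome (black line), by locus. Gstk1 is drawn as a triangle at its lower bound, a log2 of 6.69, because it had no WT counts. Gsta4, Gstt1 and Gsto1 stand apart from most of their neighbours, and the mu genes straddle theirs.

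The mu-class genes, whose enzymes conjugate a wide range of electrophiles, differed from each other within 1 cluster. Gstm1 was 34.99, 32.3, 35.03 and 34.3 CPM in WT and 43.9, 44.1, 40.8, 44.1 and 42.2 CPM in mutator. Gstm2 was 26.9, 27.7, 29.0 and 27.9 CPM in WT and 11.1, 9.80, 9.68, 9.97 and 9.11 CPM in mutator. Gstm1 was thus modestly higher and Gstm2 lower in every mutator well, with no overlap for either. The log2 fold change of Gstm1 was 0.33 ± 0.036 (1.26-fold higher, means 34.2 ± 1.30 and 43.0 ± 1.47 CPM). That of Gstm2 was -1.48 ± 0.05 (2.79-fold lower, means 27.9 ± 0.842 and 9.93 ± 0.737 CPM). Gstm5, at the other end of the cluster, was 30.5 to 31.5 CPM in WT and 14.4 to 17.1 CPM in mutator, with means of 31.1 ± 0.407 and 15.6 ± 1.06 CPM. Its log2 fold change was -0.99 ± 0.046, or 1.99-fold lower. Gstm5 shares 13.9% of its exon bases with the antisense gene 4933431E20Rik, whose reads cannot be told apart from its own where the counting used no strand.

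The ratio of counts within a library was used to compare the lines, since gene length and library depth cancel in it. The ratio of Gstm1 to Gstm2 was 1.16 to 1.30 in WT and 3.95 to 4.64 in mutator. The ratio of Gstm1 to Gstm5 was 1.10 ± 0.0544 in WT and 2.76 ± 0.194 in mutator. Gstm2 also shifted against Gstm5, from 0.898 ± 0.036 to 0.637 ± 0.044. Thus all 3 pairs of mu genes were in ranges that did not overlap between the lines.

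**Figure D3:**
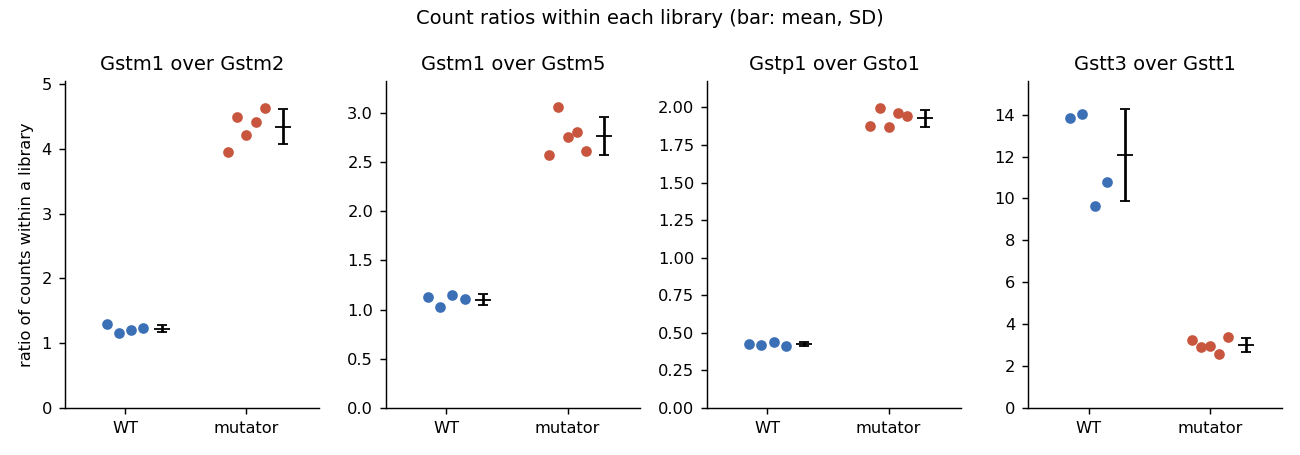
Ratio of counts within each library for 4 pairs of transferase genes (blue, WT, n = 4; red, mutator, n = 5; bars, mean and SD; axes start at 0). Gstm1 over Gstm2, Gstm1 over Gstm5 and Gstp1 over Gsto1 are higher in every mutator library, and Gstt3 over Gstt1 is lower.

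The surroundings of the mu cluster were low in mutator. Of 600 tested genes on chromosome 3, 84.5% had a negative log2 fold change, whether or not they passed the test, with a median log2 fold change of -0.73. Within 1 Mb of the cluster, 21 of 26 tested genes of other families were lower and 3 higher, with a median of -0.59. Relative to the chromosome median, Gstm1 was at 1.07, Gstm2 at -0.75 and Gstm5 at -0.26. On that scale Gstm1 was over 2-fold higher and Gstm2 no longer 2-fold lower, so 6 of the 10 genes again reached 2-fold. Of all 13345 genes, 2204 passed with at least 2-fold on that scale, and 77.8% passed at any size of change.

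Among the mu genes outside the list, Gstm4, 12.6 kb beyond Gstm1, was 0.141 to 0.499 CPM in WT and 5.55 to 6.35 CPM in mutator. Gstm4 rose 19.9-fold (means 0.282 ± 0.154 and 5.93 ± 0.326 CPM, log2 fold change 4.32 ± 0.17, adjusted p = 5.26e-14, edgeR). Gstm6, named after its values were seen, fell by 3.68 on the log2 scale from 11 to 16 counts per WT well to 3 or fewer per mutator well (adjusted p = 8.86e-07). Gstm7 had a log2 fold change of -0.67 ± 0.26 at 0.450 ± 0.122 against 0.282 ± 0.072 CPM (adjusted p = 0.0239). Relative to the chromosome median Gstm7 was at 0.05 (adjusted p = 0.867), and it did not pass under DESeq2 (-0.68, adjusted p = 0.0999), without WT replicate 3 (-0.52), without mutator replicate 3 (-0.60) or without mutator replicate 4 (-0.62). Its adjusted p ranged from 0.0107 to 0.867 over the alternatives. Gstm3 had 1 count over all 9 libraries. The cluster thus held genes with differences from -3.68 to 4.32.

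Gstp1 and Gsto1 were the most abundant genes of the family. Gstp1, the pi-class enzyme, was 86.0, 87.2, 90.1 and 89.1 CPM in WT and 113, 119, 110, 119 and 116 CPM in mutator. Gsto1, the omega-class enzyme with thioltransferase and dehydroascorbate reductase activity, was 201, 209, 204 and 215 CPM in WT and 60.2, 59.5, 59.0, 60.6 and 59.9 CPM in mutator. The lines did not overlap for either gene, Gstp1 being modestly higher and Gsto1 lower in mutator. Gstp1 had a log2 fold change of 0.39 ± 0.029 (1.31-fold), with means of 88.1 ± 1.87 and 115 ± 3.81 CPM. Gsto1 had a log2 fold change of -1.79 ± 0.025 (3.46-fold lower), with means of 207 ± 5.78 and 59.8 ± 0.616 CPM. The mutator wells for Gsto1 varied by only 1.03%. The count ratio of Gstp1 to Gsto1 went from 0.425 ± 0.0116 in WT to 1.93 ± 0.0552 in mutator. Of the 150-base windows of Gstp1, 41.8% also occur in Gstp2 or Gstp-ps, so reads may have been split or left out there. Gstp2 itself had 0.074 ± 0.0582 CPM in WT and 0.241 ± 0.0545 CPM in mutator and was not tested.

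Gstp1 and Gsto1 both lie on chromosome 19, whose median log2 fold change was 0.05. Within 1 Mb of Gstp1, 29 of 50 tested genes were higher and 16 lower, and within 1 Mb of Gsto1, 5 of 14 were higher and 6 lower. The lowest neighbour of Gsto1 was Nt5c2 at -0.58, named after its values were seen, so Gsto1 was below all 14. Gsto2, directly beyond Gsto1, had 0.312 ± 0.123 and 0.365 ± 0.173 CPM and did not pass the test (log2 fold change 0.22 ± 0.36, adjusted p = 0.595).

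Gstt1 and Gstt2, of the theta class, were low in both lines. Gstt1, whose enzyme acts on small halogenated molecules, was 0.638, 0.631, 0.875 and 0.848 CPM in WT, from 20 to 24 counts a well. In mutator Gstt1 was 4.31, 5.08, 4.76, 5.94 and 4.20 CPM, from 136 to 296 counts. All mutator wells were above all WT wells, and the mean went from 0.748 ± 0.131 to 4.86 ± 0.700 CPM (log2 fold change 2.73 ± 0.15, 6.63-fold). The mutator wells of Gstt1 spread more than counting gives, at 14.4% against 6.94%. Gstt2 was 0.194, 0.158, 0.152 and 0.353 CPM in WT and 0.484, 0.363, 0.0977, 0.441 and 0.185 CPM in mutator. The lines overlapped for Gstt2, with a log2 fold change of 0.61 ± 0.42, so no difference was detectable at 4 to 22 counts a well. Gstt3, 2.39 kb from Gstt1 on the other side, rose from 8.82 ± 0.29 to 14.5 ± 0.472 CPM (log2 fold change 0.72 ± 0.05, 1.64-fold, adjusted p = 2.75e-10, edgeR). The count ratio of Gstt3 to Gstt1 was 12.1 ± 2.20 in WT and 3.02 ± 0.333 in mutator, so Gstt1 differed more than its neighbour. Of the 150-base windows of Gstt3, 21.7% are shared with the predicted gene Gm20441. Gstt4 had no WT counts and 0 to 5 counts a well in mutator (0.0516 ± 0.0402 CPM), so its libraries overlapped. Chromosome 10 had a median of -0.21, and relative to it Gstt1 was at 2.94 and Gstt2 at 0.82.

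Gstk1 and Mgst1 lie far apart on chromosome 6. Gstk1 had 0 counts in all 4 WT wells, and 110, 111, 98, 136 and 79 counts in the mutator wells, or 2.54, 2.52, 2.39, 2.73 and 2.44 CPM. The gene was thus undetected in 1 line and present in every well of the other. The floor of 3 counts over the summed WT libraries is 0.0245 CPM, which makes the mutator mean of 2.52 ± 0.129 CPM at least 103-fold higher. Mgst1, a membrane enzyme of the endoplasmic reticulum and mitochondria, was 1.17, 1.04, 1.26 and 0.919 CPM in WT and 2.28, 2.77, 2.91, 2.71 and 2.59 CPM in mutator. Mgst1 was higher in every mutator well, with a log2 fold change of 1.27 ± 0.13 (2.42-fold, means 1.10 ± 0.147 and 2.65 ± 0.235 CPM). Of 7 tested genes within 1 Mb of Gstk1, 6 were higher and none lower, with a median of 1.35 against a chromosome median of 0.13. Within that window Casp2 was at 0.13 and Fam115c, named after its values were seen, at 4.90. Of 4 tested genes around Mgst1, 1 was higher and 2 lower, with a median of -0.14.

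Of the other genes of the MAPEG family, Mgst2 rose 3.86-fold at a low level, from 0.149 ± 0.0599 to 0.614 ± 0.107 CPM (adjusted p = 5.73e-06). Mgst3 rose 1.13-fold, from 21.6 ± 1.31 to 24.4 ± 1.17 CPM (adjusted p = 0.00291), and Ptges, a prostaglandin E synthase, was 15.3 ± 0.706 and 16.2 ± 0.955 CPM and did not pass (adjusted p = 0.166). Relative to the chromosome medians 2 of these 3 were higher and 1, Ptges at -0.23, lower. Gstz1, the zeta-class enzyme of tyrosine breakdown, was 30.9 ± 1.44 and 31.6 ± 1.03 CPM (log2 fold change 0.04 ± 0.038, adjusted p = 0.388). After removal of a trend on GC content and length Gstz1 was at 0.10 and passed (adjusted p = 0.031, with 0.0666 to 0.715 under the other alternatives). Of 7 other cytosolic transferase genes tested, 3 rose and 2 fell (all genes, 40.7% and 39.2%), with a median of 0.22. Relative to the chromosome medians 3 of these 7 were higher and 1 lower.

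Within a line, levels of different genes were compared as CPM per kilobase of the transcript linked to RefSeq, of which each gene had 1. In WT, Gsto1 came first at 175.4 ± 4.89 and Gstp1 second at 107.3 ± 2.28, and they made up 47.3% and 29.0% of the sum over the 10 genes. The order of Gsto1 and Gstp1 in WT is uncertain. Of the 150-base windows of Gstp1, 41.8% also occur in Gstp2 or Gstp-ps, against 0% for Gsto1. Reads left out there would lower the level and the share of Gstp1 in either line. Gstm5 followed at 32.9 ± 0.431, then Gstm1 at 26.5 ± 1.01 and Gstm2 at 26.2 ± 0.792, whose wells overlapped. Mgst1 (0.939 ± 0.126), Gstt1 (0.721 ± 0.127) and Gsta4 (0.555 ± 0.172) came next, each overlapping its neighbour in the order, and Gstt2 (0.157 ± 0.069) and Gstk1 (0) were last.

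In mutator the order as counted was another. Since the order of Gsto1 and Gstp1 in WT is uncertain, so is a change of the leading gene. Gstp1 led at 140.5 ± 4.65 CPM per kb, 51.9% of the sum, and Gsto1 was second at 50.6 ± 0.521, 18.7%. Gstm1 (33.4 ± 1.14) and Gstm5 (16.5 ± 1.13) followed, and Gsta4 at 10.3 ± 0.296 overlapped Gstm2 at 9.34 ± 0.692. Gstt1 (4.69 ± 0.675), Gstk1 (2.71 ± 0.138), Mgst1 (2.27 ± 0.202) and Gstt2 (0.229 ± 0.122) had wells apart from their neighbours in the order. Gsta4 went from 0.150% of the sum in WT to 3.79% in mutator. The summed level was 362.9 to 378.6 CPM per kb in WT (370.6 ± 6.50) and 260.9 to 278.2 in mutator (270.5 ± 6.44), lower in every mutator well.

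**Figure D4:**
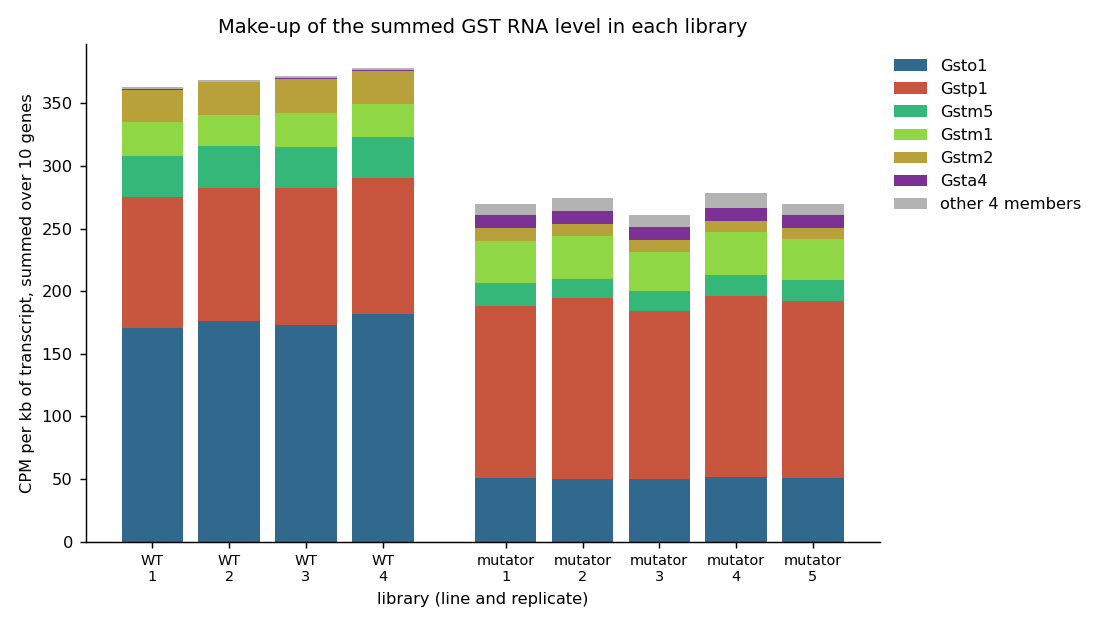
Summed CPM per kb of transcript over the 10 genes in each library, stacked by gene; the bars start at 0. Gsto1 is the largest block in the 4 WT libraries and Gstp1 in the 5 mutator libraries, where the Gsta4 block is also visible and the sum is lower. The Gstp1 block is not corrected for sequence shared with Gstp2 and Gstp-ps.

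As a description only, genes whose pattern over the 9 libraries was most like that of Gsta4 were sought among the 7922 tested genes that averaged 10 CPM or more, by the root mean square difference of centred log2 CPM. The nearest were Rspo2 (0.169), which encodes a Wnt-enhancing R-spondin, Dennd2a (0.174), Tgfbi (0.180), which encodes a matrix protein, the receptor tyrosine kinase gene Ret (0.210) and Xkr5 (0.216). Rspo2 went from 1.47 ± 0.25 to 21.6 ± 1.34 CPM, Tgfbi from 2.63 ± 0.408 to 41.3 ± 2.52 CPM and Ret from 0.901 ± 0.088 to 18.3 ± 0.994 CPM. The ranking rests on the contrast for which Gsta4 was chosen, and these genes reached that average through mutator, where they were high; Gsta4 itself averaged less.

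In all, 76 genes of 8 lists around glutathione were tested with edgeR, among them the 10 tested transferase and MAPEG genes outside the list given above. Of these 76, 44 rose, 21 fell and 11 did not pass. Thus 85.5% passed against 79.9% of all genes, of which 40.7% were higher and 39.2% lower. Their median log2 fold change was 0.20 against 0.01. Of the 76, 20 passed with at least 2-fold, 17 higher and 3 lower. Among all genes 17.8% did, 11.3% higher and 6.53% lower. The lists were chosen with earlier results of these data known.

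Of 12 tested genes of glutathione synthesis and turnover, 9 rose and 1 fell, with a median of 0.73, where 40.7% of all genes were higher and 39.2% lower. Set against the chromosome medians, 9 were higher and 2 lower, with a median of 0.46. The subunits of the rate-limiting ligase went apart, since Gclc, the catalytic subunit, rose by 0.73 on the log2 scale, from 42.2 ± 1.27 to 70.0 ± 2.19 CPM (adjusted p = 4.58e-13), and Gclm, the modifier subunit, fell from 91.9 ± 1.64 to 48.5 ± 1.31 CPM (-0.92, adjusted p = 1.98e-15). Gclm lies on chromosome 3 and was at -0.19 relative to that chromosome, and Gclc, 397.5 kb from Gsta4, was at 0.33 relative to chromosome 9. The count ratio of Gclc to Gclm was at most 0.472 in the WT wells and at least 1.38 in the mutator wells. Gss, glutathione synthetase, rose 1.43-fold. Chac1, which breaks glutathione down in the cytosol, rose 2.57-fold, from 19.6 ± 0.318 to 50.5 ± 2.33 CPM, and Slc7a11, the cystine importer, rose by 2.57 on the log2 scale. The largest rise was in Ggt7, a gene of the gamma-glutamyltransferase family, from 0.503 ± 0.132 to 38.5 ± 2.17 CPM (74.4-fold, adjusted p = 1.18e-19).

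Of 13 tested genes listed as redox enzymes that use glutathione, 4 rose and 8 fell (all genes, 40.7% and 39.2%), median -0.13. That split did not hold with a trend on GC content and length removed, when 6 were higher and 6 lower, and relative to the chromosome medians 5 were higher and 7 lower, with a median of -0.08. Gsr, glutathione reductase, fell 1.10-fold, from 131 ± 1.52 to 120 ± 2.65 CPM, and Hagh, of the glyoxalase pathway, fell 1.67-fold. Gpx7, a peroxidase of the endoplasmic reticulum, had 1 or 2 counts a well in WT and 17.1 ± 1.09 CPM in mutator. Its fitted rise of 327-fold rests on 6 WT counts in all, so its size is uncertain. Gpx7 passed the filter on low counts only through mutator. Glrx, glutaredoxin, rose 2.41-fold.

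Of 7 tested genes of conjugate export and mercapturate formation, 4 rose and 2 fell (all genes, 40.7% and 39.2%), median 0.17. Relative to the chromosome medians 3 were higher and 3 lower, with a median of 0.09, and the median was 0.03 with the GC and length trend removed. Abcc4, an exporter, rose 1.63-fold, and Acy3, an aminoacylase, rose 1.95-fold. Of 13 genes of reactive aldehyde removal, 8 rose and 3 fell, against the same shares of all genes, with a median of 0.17. The carbonyl reductase genes Cbr3, from 0.135 ± 0.0898 to 2.57 ± 0.132 CPM, and Cbr1, from 3.59 ± 0.309 to 20.1 ± 1.51 CPM, rose 19.1-fold and 5.63-fold, and Aldh1a3, of retinoic acid synthesis, fell 2.64-fold.

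**Figure D5:**
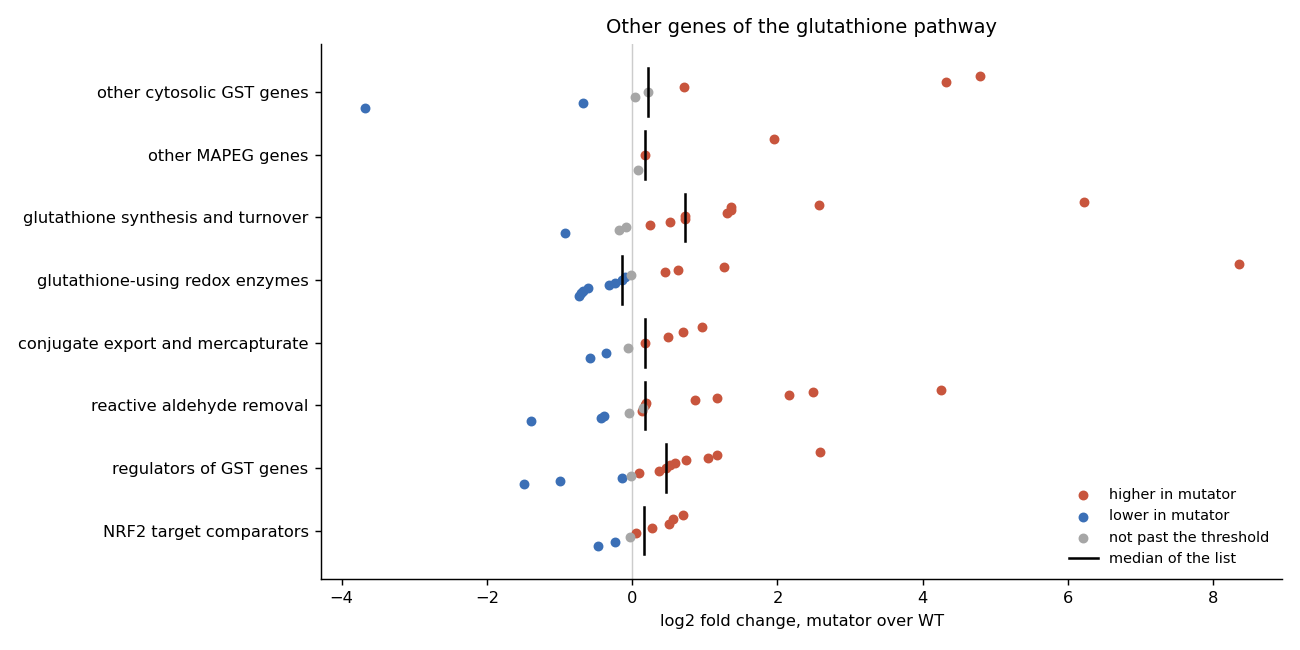
Log2 fold change (mutator over WT) of the tested genes of 8 lists around glutathione, coloured by the edgeR call at an adjusted p of 0.05, with the median of each list as a black line. The list of synthesis and turnover has the highest median, 0.73, and that of redox enzymes the lowest, -0.13.

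Of 13 tested regulators of transferase genes, 9 rose and 3 fell (all genes, 40.7% and 39.2%), with a median of 0.47. Relative to the chromosome medians 8 were higher and 3 lower, with a median of 0.20, and with the GC and length trend removed 8 were higher and 5 lower. Ahr, the aryl hydrocarbon receptor, rose from 17.5 ± 0.298 to 104 ± 3.48 CPM (5.98-fold, adjusted p = 2.24e-20), and Ahrr, its repressor, rose 2.06-fold. Nfe2l2, which encodes NRF2, and Keap1, which encodes its inhibitor, rose 1.43-fold and 1.51-fold, and Bach2, a repressor of the same elements, rose 2.25-fold. Of 8 genes kept as NRF2 comparators, 5 rose and 2 fell, against the same shares of all genes, with a median of 0.16. Of these 8, 6 were higher and 2 lower relative to the chromosome medians (median 0.25), and with the GC and length trend removed 4 were higher and 3 lower (median 0.05). Among them Nqo1 rose 1.62-fold, Hmox1 1.48-fold and Srxn1 1.42-fold.

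Markers of cell type moved with the lines. The summed level of 8 fibroblast markers was 3269 to 3438 CPM in WT and 8751 to 9881 CPM in mutator, most of it Col1a1, Col1a2 and Vim. Of the 8, 5 were higher in mutator by edgeR, while Pdgfra was lower (7.30 ± 0.297 and 5.20 ± 0.292 CPM, adjusted p = 2.14e-06) and S100a4 did not pass (558.9 ± 12.9 and 559.6 ± 27.5 CPM, adjusted p = 0.957). Thy1 was not tested, with no WT counts and 0.0917 ± 0.048 CPM in mutator. The 4 epithelial markers summed to 100.3 to 109.2 CPM in WT and 1.10 to 1.93 CPM in mutator, nearly all of it Krt18. None of the epithelial markers was at 0 in all wells of a line. Cdh1 was also lower in mutator, 1.73 ± 0.0463 against 0.158 ± 0.0741 CPM (adjusted p = 5.31e-11, edgeR). Epcam and Krt8 had WT means of 0.196 and 0.115 CPM and mutator means of 0.0646 and 0.0549 CPM. Neither was tested, and the lines overlapped for Krt8 but not for Epcam. The 4 adipocyte markers summed to 7.07 to 8.02 and 1.82 to 2.81 CPM, nearly all Fabp4, with Plin1 and Lep at 0 in both lines and Adipoq at 0 in WT. Macrophage markers summed to 2.16 to 2.66 and 3.69 to 4.54 CPM, with Adgre1 at 0 in both lines. Most of that sum was Cd68 (2.32 ± 0.244 and 3.84 ± 0.255 CPM). Endothelial markers summed to 0.685 to 1.20 and 0.293 to 0.531 CPM, with Cdh5 at 0 in WT. Hepatocyte markers, from the cell type best known for transferases, summed to at most 0.124 CPM in any library, with Ttr at 0 in both lines and Alb at 0 in WT. The part of the fibroblast and epithelial difference in the transferase differences was not tested.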

How the data were processed

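RNA of 4 WT and 5 mutator wells was sequenced as 150 bp paired-end reads, per the labels' protocols, from strand-specific libraries made from 1 µg of RNA. The authors deposited raw counts per gene. Per the submitters' processing notes, reads were processed with STAR 2.4.2a and HTSeq on mm10. The sources used here do not give the HTSeq version, annotation and strand setting. The table also has 5 library columns that match no sample here and were not used. Each of the 16 replicate pairs differed beyond sampling noise (chi-square per degree of freedom 2.49 to 12.4, genes with at least 20 counts), so each library was its own sample.

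The quasi-likelihood F test of edgeR 4.0.16 (R 4.3.3) compared the groups after filterByExpr and TMM scaling, with no other term, with Benjamini-Hochberg adjustment over 13345 genes and a threshold of 0.05. The SE is the absolute log2 fold change over the root of F. CPM was computed here from the deposited counts. Floors are 3 counts over a group's libraries, and they and the exact Clopper-Pearson intervals (95%) cover counting error only. Lengths, exons and shared windows came from GENCODE M21, and loci from RefSeq. Of the tested genes 91.8% had a chromosome and 90.8% a length and GC content; the others had no offset in those alternatives. Of 98 entries of pathway lists 97 were found. The fit was tested on simulated counts.

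The genes and lists were chosen with earlier results of these data known. The text names all 10 genes, the 3 largest changes past the threshold in each list at a mean of at least 1 CPM, 16 set genes such as Gclc and Ahr, the 3 tested genes nearest to Gsta4 on each side and the 5 most like it; 1 gene under this rule is not reported here. Alternatives were other scalings (DESeq2-type size factors and upper quartile), other filters, DESeq2 1.42.0, each library left out, a replicate block, chromosome medians, a GC and length trend, and other gene lengths.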

Additional observations from a re-analysis of the deposited data

Results flagged for a closer look

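In groups of 4 or 5 libraries, 39 sets of transferase-family values were checked for a library far from the rest, which chance gives in about 1 of 20 sets. Gsta1 was 2.04 CPM in mutator replicate 5, against 1.24 to 1.42 CPM in the other mutator libraries. Ptges was 17.9 CPM in mutator replicate 4, against 15.6 to 16.0 CPM in the others. None of the 10 genes of the list met the criterion.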

How the results depend on the processing

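No alternative changed the sign of any of the 10 genes. When genes had to reach 10 CPM in 4 libraries, 2 of the 10 reached 2-fold in place of 6, since fewer of them were kept, and 931 of all genes did in place of 2380. With all exon bases as length, chosen after seeing the data, the summed level was 225.0 in WT and 165.6 in mutator. Gsto1 and Gstm1 then overlapped in mutator. On that length Gstm1 and Gstm2 were apart in WT, and Gsta4 and Gstm2 were apart in mutator. Mean transcript length could not differ from the main setting, since each of the 10 genes had 1 transcript linked to RefSeq. Gstm7 reversed to 0.052 relative to chromosome medians. Leaving out a library gave 6 to 7 of the 10 at 2-fold, 10418 to 10594 genes past the threshold, 2271 to 2467 at 2-fold, and 43 to 45 pathway genes higher and 20 to 21 lower. Same-numbered wells did not pair (correlations of their deviations -0.172 to 0.202, and 0 of the WT wells correlated best with their own number). With the replicate block, 10457 genes passed, 2346 at 2-fold, 7 of the 10 reached 2-fold, and 43 pathway genes were higher and 21 lower. The fitted log2 fold change of Gstk1, 8.70 to 9.60 over the alternatives, depends on the prior count. Depth limits Gstt2, Gstm7 and Gsto2, with few counts a well.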
